A study of Bos taurus with 40 samples.

Results

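The 9 genes described here encode enzymes of gluconeogenesis and of propionate use, chosen by name from textbook pathways with earlier results of these data known. PCK1, PCK2, PC, G6PC, FBP1 and FBP2 serve the making of glucose, and PCCA, PCCB and MUT the entry of propionate. All 9 were among the 13570 genes of the tables, and all 9 had reads and were among the 13148 genes tested. The samples came from Korean cattle older than 22 months, 5 cows and 5 bulls, whose treatment and diet are not given in the sources used here. From each of the 10 animals a piece of liver, abdominal fat, longissimus dorsi muscle (a back muscle) and pituitary gland was taken after slaughter. This gave 40 RNA-seq libraries, 5 for each sex and tissue, with separate animals as replicates by their labels.

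Gluconeogenesis builds glucose from smaller carbon compounds and takes place mainly in the liver. In ruminants the microbes of the rumen ferment most dietary sugar to short-chain fatty acids, so that little glucose is absorbed and the liver makes it throughout the day, chiefly from propionate. Propionate is activated to propionyl-CoA, carboxylated, turned into succinyl-CoA, and passed through oxaloacetate and phosphoenolpyruvate up to free glucose.

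Levels are given as CPM, the reads of a gene relative to the size of its library, where library sizes were scaled by TMM factors, which adjust for a few genes taking a large part of a library. Libraries held 5173092 to 19165864 reads on genes (median 10005607), and 3 reads, the upper limit that a count of 0 allows, were worth 0.132 to 0.793 CPM, so that levels at or under these rest on very few reads. Such limits cover counting error only, and transcript lengths were not used, so that levels are compared between samples within a gene and never between genes. Each tissue carried the markers of its own main cell type: the summed level of 7 hepatocyte markers was 134691 to 308304 CPM in liver and at most 1881 CPM elsewhere, and that of 5 muscle fibre markers was 85472 to 179938 CPM in muscle and at most 144 CPM elsewhere. A pair of libraries stood apart in their sex-linked genes. The liver of bull 3 had 1401 CPM of XIST, the RNA of the inactive X chromosome (681 to 2179 CPM in the livers of cows), and no read of the Y-linked genes USP9Y, DDX3Y and ZFY, while the fat of bull 5 had 1.78 CPM of USP9Y against 28.1 to 34.1 CPM in the fat of the other bulls. The XIST of this fat, at 1.39 CPM, was far below the 316 to 981 CPM in the fat of cows, as its label has it. It also had the highest summed adipocyte markers of the fats (26206 CPM, against 6910 to 13863 CPM). Every fit was repeated without either library.

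The liver had the highest mean level of 7 of the 9 enzymes, and the exceptions were FBP2, which was found almost wholly in muscle, and PCK2, whose mean was slightly higher in fat, a difference that turned in the fit without the fat of bull 5. In the fit of tissue and sex over all 40 libraries, 6 of the 9 were significantly higher in liver than in each of the other 3 tissues (G6PC, PCK1, FBP1, PCCA, PCCB and MUT; edgeR likelihood ratio test, Benjamini-Hochberg adjusted p under 0.05 in all 3 contrasts), where 13.7% of all genes tested were so. None was lower in liver than in all 3, against 14.2% of all genes. In 5 of the 9 (PCK1, G6PC, FBP1, PCCA and MUT) every liver library lay above every library of the other tissues, which was so for 5.78% of all genes. No member stood in this way in fat (1.60% of all genes) or in pituitary (7.23%). In bulk tissue a lower level in fewer cells and a lower level per cell cannot be told apart.

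**Figure D1:**
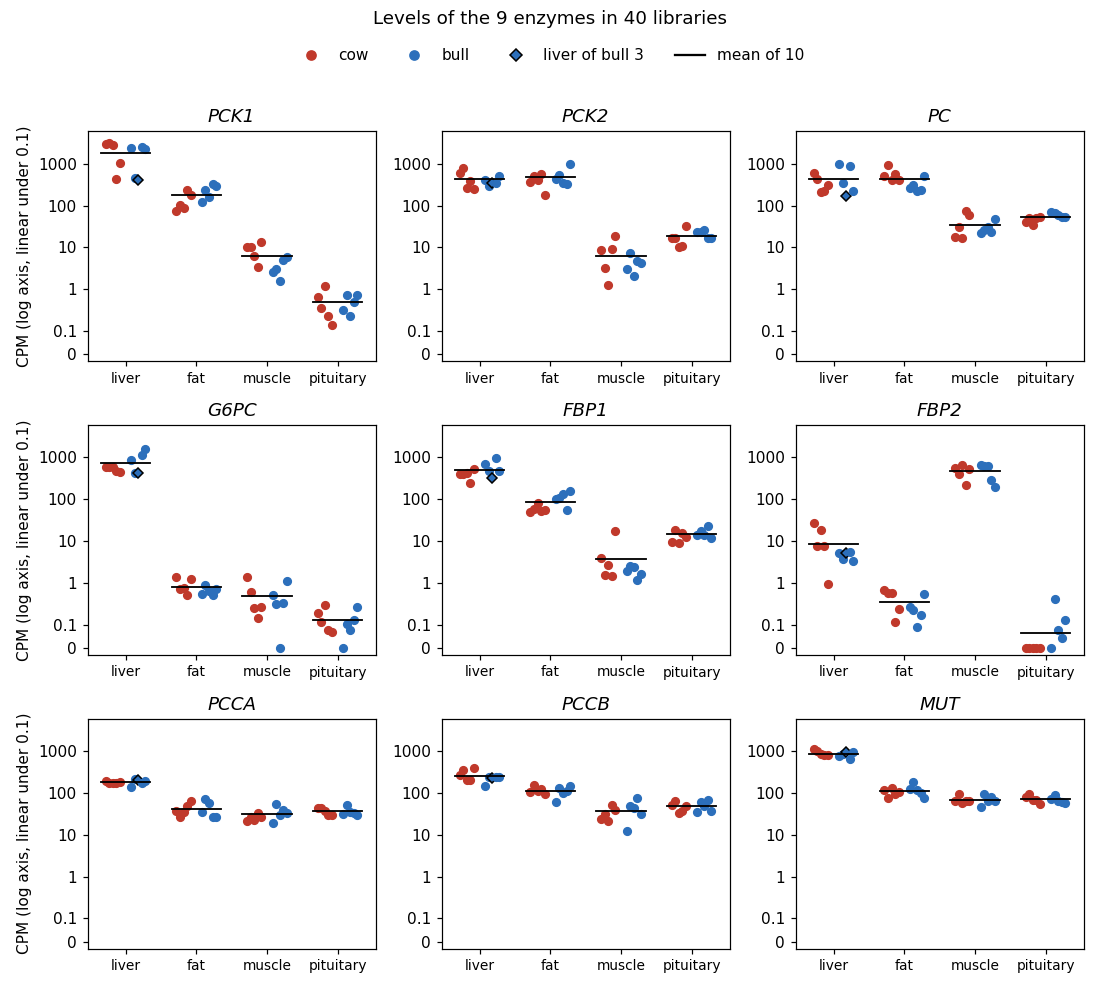
Level of each enzyme gene (CPM, log axis, linear under 0.1) in the 40 libraries by tissue, with cows in red, bulls in blue, the liver of bull 3 as a diamond and the mean of 10 as a line. G6PC reached 420 to 1623 CPM in liver and at most 1.39 CPM elsewhere, FBP2 reached 201 to 666 CPM in muscle, and PCK2 and PC overlapped between liver and fat.

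The contrasts share libraries, since each tissue enters 3 of them. Liver against fat called 7 of the 9 members, all higher in liver (65.1% of all genes were called, 29.2% with liver higher), with a median log2 difference of 2.55 over the members and -0.13 over all genes tested. Liver against muscle called all 9, 8 higher and FBP2 lower (62.8% of all genes, 28.4% higher and 34.4% lower; medians 3.68 and -0.11). Liver against pituitary called all 9, each higher in liver (65.4% of all genes, 29.7% higher; medians 4.45 and -0.12). Fat exceeded muscle in 7 members and was lower in FBP2, while G6PC was not called (60.4% of all genes, 33.3% higher and 27.1% lower in fat), and fat exceeded pituitary in 8, with PCCA not called (65.6% of all genes, 32.3% higher in fat). Muscle against pituitary called only 5 members (64.9% of all genes, 32.0% higher and 33.0% lower in muscle), with PCK1, G6PC and FBP2 higher and PCK2 and FBP1 lower in muscle; with the animal as a block in the fit 7 were called, since PC (log2 -0.67, adjusted p = 0.0405) and PCCB (log2 -0.41, adjusted p = 0.0406) were then lower in muscle. PC was also called in muscle against pituitary with DESeq2 (adjusted p = 0.0243) and without cow 4, cow 5, bull 5 or the fat of bull 5 (adjusted p = 0.0144, 0.0388, 0.0144 and 0.0324), and PCCA without bull 5 (0.0290). PCCA, called as higher in fat than in muscle (log2 0.48, adjusted p = 0.0203), was not called without cow 5 (0.0945) or bull 3 (0.0698), and G6PC was called between them without bull 5 (adjusted p = 0.0151). With library sizes alone the median of the 11078 genes with a mean of at least 10 reads moved from 0.053 to -0.88 in muscle against pituitary, and all 9 members were called.

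G6PC, the catalytic subunit of glucose-6-phosphatase, sets glucose free in the last step of the pathway. Its level in the livers of cows 1 to 5 was 581, 604, 598, 467 and 450 CPM, and in those of bulls 1 to 5 it was 873, 435, 420, 1166 and 1623 CPM. The bulls therefore spanned a wider range than the cows, and bulls 2 and 3 lay below every cow, though the liver of bull 3 is one of the doubted libraries. Fat had 0.505 to 1.39 CPM (median 0.705), muscle 0 to 1.38 CPM (median 0.323) and pituitary 0 to 0.290 CPM (median 0.109), levels that rest on at most 27 reads a library. Of the sum of the 4 tissue means, 99.8% was in liver, and 1.34% of all genes had as high a share in 1 tissue. The difference from fat was 9.78 on the log2 scale (SE 0.299, adjusted p = 9.93e-132). Among the 9 enzymes this was the largest excess of liver over fat.

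PCK1 encodes the cytosolic phosphoenolpyruvate carboxykinase, which makes phosphoenolpyruvate from oxaloacetate. Cows 1 to 5 had 3014, 3070, 2794, 432 and 1049 CPM in liver, and bulls 1 to 5 had 2346, 446, 410, 2583 and 2296 CPM. In 6 livers the level was 2296 CPM or more, and in 4 (cow 4, cow 5, bull 2 and bull 3) it was 1049 CPM or less. Both groups held both sexes. Cow 5, at 1049 CPM, lay well above the other low livers (410 to 446 CPM), so that no clear split into sets was shown. The 4 livers at 1049 CPM or less also held the 4 lowest levels of G6PC. Fat, the tissue with the next highest level, had 74.9 to 336 CPM (median 173), which was below every liver, and the adipocyte is known to use the enzyme to make glycerol for triglyceride. Muscle had 1.59 to 13.5 CPM (median 5.46) and pituitary 0.137 to 1.16 CPM (median 0.419), so that none of the 4 tissues overlapped with its neighbour in this order. The pituitary values rest on 2 to 16 reads a library, and the lowest muscle on 6 reads. The mean in liver was 1844 ± 1126 CPM (SD, n = 10) and 9.76-fold that in fat in the fit (log2 3.29, SE 0.376, adjusted p = 1.13e-14). Hepatocyte markers in fat summed to 75.6 to 1881 CPM, beside the 134691 CPM of the lowest liver, and the fat of bull 3, with the lowest marker sum, had 163 CPM of PCK1. The sum in fat was mostly TF, with a mean of 499 CPM there against 36.0 CPM of ALB.

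PCK2 encodes the mitochondrial form of the same enzyme. Its level was 254 to 802 CPM in liver (median 367) and 180 to 1002 CPM in fat (median 424), and the tissues overlapped almost fully. The difference was -0.16 on the log2 scale (95% interval -0.77 to 0.44, adjusted p = 0.664). The highest value in fat came from bull 5, one of the doubted libraries, and without it the difference was 0.14 (adjusted p = 0.701). With library sizes alone in place of TMM factors, PCK2 was significantly lower in liver than in fat (log2 -0.80, adjusted p = 0.0104), a scaling that moved the median of the 11078 genes in this contrast from -0.13 to -0.83. Pituitary had 10.4 to 31.7 CPM and muscle 1.27 to 19.2 CPM, both far below liver and fat. The highest value in muscle was that of cow 5.

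PC, pyruvate carboxylase, makes oxaloacetate from pyruvate in the mitochondrion and serves glucose making in liver and fatty acid making in fat. In the livers of cows 1 to 5 it had 596, 442, 217, 227 and 312 CPM and in those of bulls 1 to 5 it had 993, 343, 165, 907 and 221 CPM. Bulls 1 and 4 stood above every other liver, and bull 3 was the lowest. Fat had 220 to 931 CPM (median 406), and the difference between liver and fat was 0.03 on the log2 scale (95% interval -0.55 to 0.62, adjusted p = 0.949). This difference turned to -0.66 (adjusted p = 0.0365) with library sizes alone. Pituitary (33.8 to 70.8 CPM) and muscle (17.1 to 74.3 CPM) were lower than both, by 3.05 (SE 0.300) and 3.68 (SE 0.301) on the log2 scale against liver.

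FBP1 and FBP2 encode the liver and the muscle form of fructose-1,6-bisphosphatase, which removes a phosphate from fructose-1,6-bisphosphate. They lie next to each other in the RefSeq annotation (ARS-UCD2.0), and as close paralogs they may share reads. The study counted uniquely mapped reads, which leaves out reads that map equally to both genes. The low level of each outside its main tissue is therefore uncertain. FBP1 had 250 to 966 CPM in liver (median 454), 50.2 to 156 CPM in fat (median 70.0), 9.20 to 22.8 CPM in pituitary (median 13.8) and 1.16 to 17.9 CPM in muscle (median 2.15). Liver exceeded fat by 2.55 on the log2 scale (SE 0.328, adjusted p = 1.15e-12), and only pituitary and muscle overlapped. FBP2 had 562, 399, 645, 220 and 532 CPM in the muscles of cows 1 to 5 and 666, 638, 641, 296 and 201 CPM in those of bulls 1 to 5. Every muscle lay above every library of the other tissues, which was so for 4.65% of all genes, and muscle held 98.2% of the sum of the 4 tissue means.

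FBP2 was also measured in liver, at 26.4, 7.45, 17.9, 7.58 and 0.957 CPM in cows 1 to 5 and at 5.29, 3.76, 5.32, 5.46 and 3.40 CPM in bulls 1 to 5. The liver of cow 1, which had the most FBP2, had the lowest summed level of muscle fibre markers (3.63 CPM), and the liver of bull 2, which had the highest (144 CPM), had 3.76 CPM of FBP2; the part of muscle tissue in the FBP2 of liver was not tested. Liver was higher than fat (0.0915 to 0.669 CPM; log2 4.50, SE 0.447, adjusted p = 4.26e-20), though most values in fat are near the floor. In pituitary FBP2 had no read in 6 of the 10 libraries and at most 8 reads in any.

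**Figure D2:**
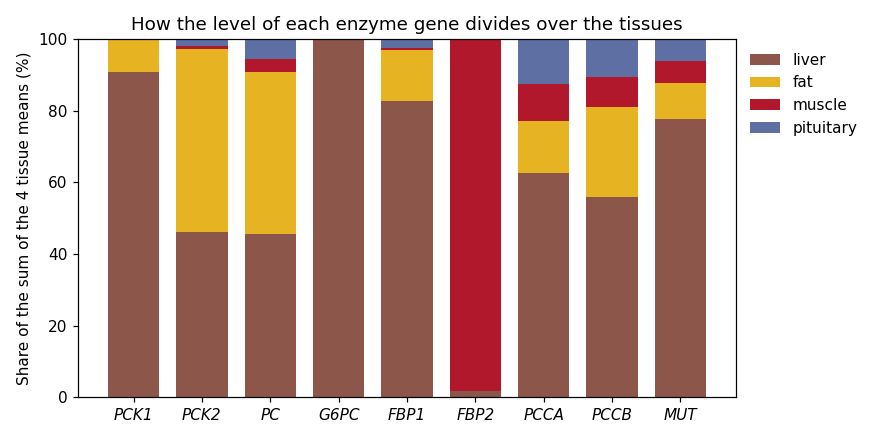
Share (%) of the sum of the 4 tissue means held by each tissue, for each enzyme gene (n = 10 libraries a tissue). Liver held 99.8% of G6PC and 90.6% of PCK1, liver and fat held 45.6% and 45.3% of PC, and muscle held 98.2% of FBP2.

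The 3 enzymes that bring propionate in were measured in all 40 libraries, with a liver excess smaller than that of G6PC or PCK1. PCCA and PCCB encode the alpha and beta subunits of propionyl-CoA carboxylase, which makes methylmalonyl-CoA. PCCA in liver had 192, 177, 177, 178 and 181 CPM in cows 1 to 5 and 141, 212, 210, 176 and 197 CPM in bulls 1 to 5. These values lay close together, with a coefficient of variation over the 10 livers of 11.0%, and 99.3% of the 7217 genes above 10 CPM in liver varied more. Fat (26.4 to 69.9 CPM), pituitary (29.4 to 52.9 CPM) and muscle (18.9 to 54.1 CPM) overlapped with each other and lay below every liver. The difference of liver from fat was 2.12 on the log2 scale (SE 0.185, adjusted p = 4.59e-27).

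PCCB had 270, 360, 205, 200 and 393 CPM in the livers of cows 1 to 5 and 150, 237, 234, 243 and 240 CPM in those of bulls 1 to 5. Bull 1 was the lowest, as it was for PCCA. Fat had 62.1 to 155 CPM (median 112), and its highest value lay just above the liver of bull 1, so that these tissues overlapped. Liver was higher than fat by 1.15 (SE 0.224, adjusted p = 1.27e-06), the smallest excess over fat among the 7 members called, and with library sizes alone it was not called (log2 0.44, adjusted p = 0.0677). Pituitary (33.3 to 68.0 CPM) and muscle (12.5 to 77.0 CPM) were lower still.

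MUT encodes methylmalonyl-CoA mutase, a vitamin B12 enzyme that yields succinyl-CoA. Its levels in liver were 1097, 1004, 842, 813 and 820 CPM in cows 1 to 5 and 746, 871, 960, 645 and 959 CPM in bulls 1 to 5. This was a narrow spread (coefficient of variation 15.1%, and 95.8% of the genes above 10 CPM varied more). The sexes overlapped in part, at 813 to 1097 CPM in cows and 645 to 960 CPM in bulls. In fat it had 76.3 to 182 CPM (median 110), in pituitary 54.1 to 95.8 CPM (median 67.1) and in muscle 45.5 to 93.1 CPM (median 64.2). The liver exceeded fat by 2.97 on the log2 scale (SE 0.160, adjusted p = 5.97e-65), and muscle and pituitary did not differ significantly (log2 -0.04, 95% interval -0.36 to 0.28, adjusted p = 0.854).

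The glucose-making enzymes varied more between livers than PCCA and MUT did. The coefficient of variation over the 10 livers was 67.1% for PC and 61.1% for PCK1, which only 3.92% and 5.67% of genes above 10 CPM exceeded, and it was 54.5% for G6PC, 41.1% for FBP1, 40.9% for PCK2 and 28.8% for PCCB, beside a median of 29.7% over those genes. Without the liver of bull 3 it was 62.9% for PC, 53.3% for PCK1, 53.2% for G6PC, 10.6% for PCCA and 15.8% for MUT. Among the other 8 members, 28 pairwise correlations over the 10 livers were computed. PCK1 was left out because of the wide gaps between its livers, so that none of its pairs, such as that with G6PC, was tested. None of the 28 passed the adjustment. The closest was PC with FBP1 (Pearson r 0.745, permutation p = 0.0118, adjusted p = 0.329; Spearman rho 0.552, permutation p = 0.104, adjusted p = 0.578), and r was 0.344 without the 2 livers farthest from the median of PC.

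**Figure D3:**
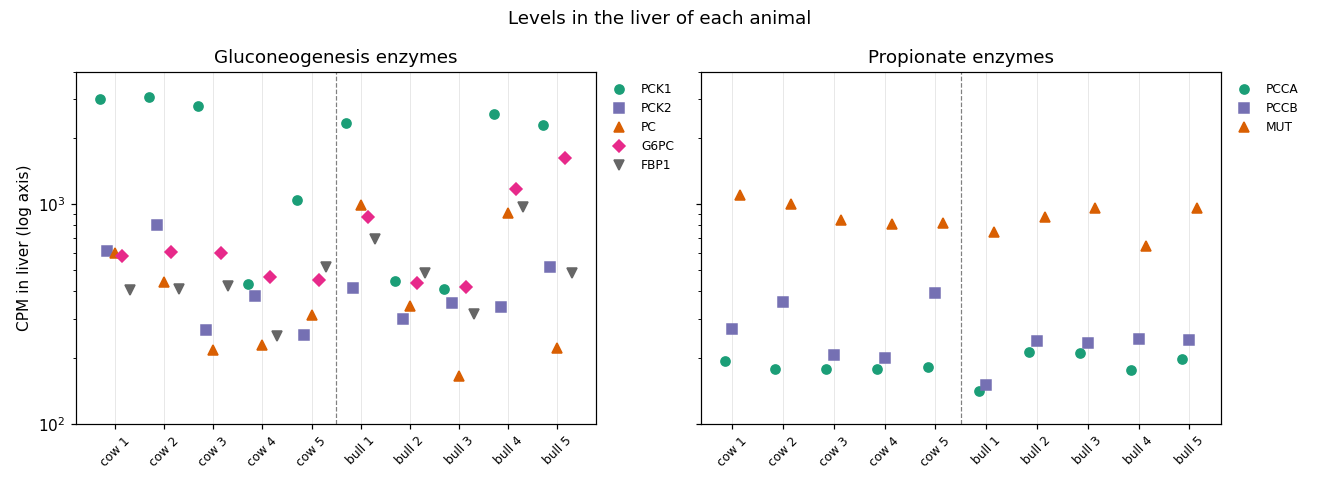
Level in the liver of each animal (CPM, log axis), for the glucose-making enzymes at left and the propionate enzymes at right, 1 point an animal; levels compare between animals within a gene, not between genes. PCK1 was 410 to 1049 CPM in cows 4 and 5 and bulls 2 and 3 and 2296 to 3070 CPM in the others, while PCCA stayed between 141 and 212 CPM.

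Ratios of reads within a library need no scaling between libraries, and 3 were compared. The ratio of PC to PCK1 reads had a mean log2 of -1.93 ± 1.08 (SD, n = 10) in liver, and in the order fat, muscle, pituitary it was 1.29 ± 1.15, 2.59 ± 1.15 and 6.85 ± 1.04, so that it was lowest in liver, whose highest value (-0.38) lay just above the lowest of fat (-0.48). The ratio of PCK2 to PCK1, the mitochondrial to the cytosolic form, had a mean log2 of -1.82 ± 1.13 in liver and 1.40 ± 0.875 in fat, and these tissues did not overlap. The ratio of PCCB to PCCA had a mean log2 of 1.48 ± 0.717 in fat against 0.42 ± 0.369 in liver, with overlap. These differences between tissues were not tested, and the pituitary ratios to PCK1 rest on 2 to 16 reads of that gene. Between the sexes in liver, bulls minus cows were 0.74 for PC to PCK1, 0.30 for PCK2 to PCK1 and -0.37 for PCCB to PCCA (two-sided exact permutation p = 0.325, 0.730 and 0.119; adjusted over the 3 ratios 0.488, 0.730 and 0.357). None of the 3 passed the test.

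The main question of the study was which genes differ between the sexes. No member was called between bulls and cows within a tissue by edgeR's likelihood ratio test, which called 0.175% of all genes in liver, 0.114% in fat, 0.517% in muscle and, highest of these, 0.745% in pituitary. The quasi-likelihood test (0.00761%, 0.0228%, 0.0532% and 0.0913% of all genes) also called 0 of 9 in each, and DESeq2 (0.176%, 0.268%, 0.813% and 1.14%) called none, giving FBP2 in pituitary no adjusted p. At an unadjusted p under 0.05 there were 2 members in each tissue, where 7.45%, 6.88%, 11.0% and 9.27% of all genes passed. Over all tissues together, in a fit of sex and tissue, 0 of 9 were called (1.69% of all genes; 0.586% with the quasi-likelihood test and 2.30% with DESeq2, which also called 0) and 0 had an unadjusted p under 0.05, as 16.7% of all genes had; that fit treats the tissues of an animal as independent. In no tissue did the sexes of any member fail to overlap, which in liver was so for 0.190% of all genes with bulls higher and 0.357% with cows higher. The same shares were 0.601% and 0.692% in fat, 0.730% and 0.920% in muscle and 0.852% and 0.487% in pituitary.

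In liver, G6PC had 903 ± 510 CPM in bulls and 540 ± 75.1 CPM in cows (SD, n = 5 each), a difference that did not pass the test (log2 0.75, SE 0.360, adjusted p = 0.620). FBP2 had 4.65 ± 0.984 CPM in bulls and 12.1 ± 10.1 CPM in cows (log2 -1.32, SE 0.548, adjusted p = 0.483), and cow 5 had the lowest value of all; without cow 5 it was called (log2 -1.64, adjusted p = 0.0202). The intervals of the propionate enzymes were narrower: -0.41 to 0.56 on the log2 scale for PCCA and -0.61 to 0.42 for MUT, while PCK1 had -1.44 to 0.77. Without the liver of bull 3 the bulls had 1024 ± 499 CPM of G6PC and 1918 ± 989 CPM of PCK1 (n = 4), and again 0 of 9 members were called.

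In fat, FBP1 had 99.8, 108, 133, 56.2 and 156 CPM in bulls 1 to 5 and 50.2, 57.3, 82.7, 51.6 and 55.9 CPM in cows 1 to 5 (log2 0.87, SE 0.339, adjusted p = 0.534; log2 0.72, adjusted p = 0.588 without the fat of bull 5). Bull 4 lay among the cows. The summed hepatocyte markers of fat were highest in cows 1, 2 and 3 (1057, 1148 and 1881 CPM, against 75.6 to 527 CPM in the other animals), and their part in the FBP1 level was not tested. In fat this sum was mostly TF (at most 1806 CPM), while ALB was at most 105 CPM. In liver the order was reversed, with means of 117192 CPM for ALB and 23292.5 CPM for TF. PC went the other way in fat, with 308 ± 116 CPM in bulls and 570 ± 216 CPM in cows (SD, n = 5 each; log2 -0.90, SE 0.363, adjusted p = 0.597). Without the fat of bull 5 the PC difference was -1.15 (adjusted p = 0.224).

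In muscle, PCK1 had 9.93, 10.3, 6.22, 3.40 and 13.5 CPM in cows 1 to 5 and 2.61, 3.04, 1.59, 4.97 and 5.94 CPM in bulls 1 to 5. Only cow 4 lay within the range of the bulls. The difference was -1.23 on the log2 scale (SE 0.438, adjusted p = 0.200), and without cow 4 it was called (log2 -1.42, adjusted p = 0.0138). FBP1 in muscle was -1.47 (SE 0.638, adjusted p = 0.338), with 17.9 CPM in cow 5 and 1.16 to 4.0 CPM in the other 9 muscles. Cow 5 also had the highest PCK1 and PCK2 of the muscles and the highest summed level of 5 adipocyte markers (1215 CPM, against 81.9 to 763 CPM in the other muscles and 6910 to 26206 CPM in fat), and the part of fat cells in these values was not tested. In pituitary, PC had 60.7 ± 7.62 CPM in bulls and 46.2 ± 8.36 CPM in cows (SD, n = 5 each; log2 0.39, SE 0.188, adjusted p = 0.489), and FBP2, with no read in any cow, gives no fold. With 0 to 8 reads in the bulls, FBP2 had an adjusted p of 0.0862 (0.425 with the quasi-likelihood test). This was the lowest of the members in the likelihood ratio tests within a tissue.

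**Figure D4:**
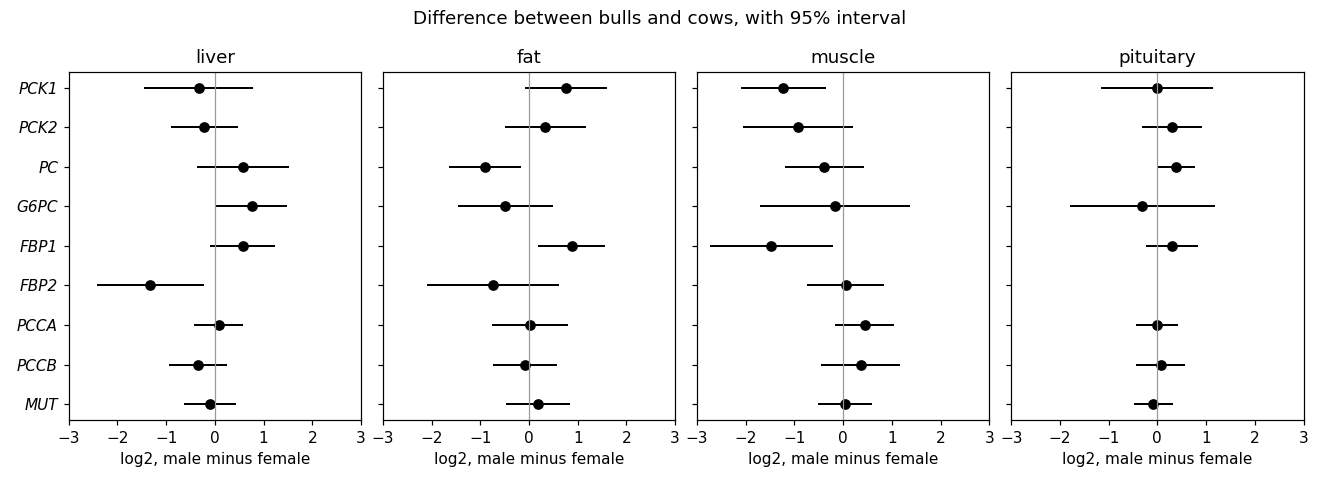
Difference between bulls and cows (log2, male minus female) of each enzyme gene in each tissue, with its 95% interval; FBP2 in pituitary, with no read in cows, is left out. No difference passed the adjusted threshold, and the intervals were narrow for PCCA and MUT in pituitary and wide for FBP1 and G6PC in muscle.

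Whether the effect of sex differed between tissues was tested with interaction terms, and 0 of 9 members were called (0.335% of all genes; 3 members had an unadjusted p under 0.05, as had 8.58% of all genes, and the quasi-likelihood test called 0 of 9 and 0.00% of all genes, and DESeq2 0 of 9 and 0.371%). FBP2 (adjusted p = 0.0599) and FBP1 (adjusted p = 0.0857) came nearest, and the quasi-likelihood test gave them 0.465 and 0.399. The FBP2 result includes the pituitary, where no cow had a read and no bull had more than 8. FBP2 passed without the fat of bull 5 (adjusted p = 0.0337), without cow 4 (0.0345) and without cow 5 (0.0128), and FBP1 without cow 2 (0.0420) and without cow 4 (0.0171).

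Genes that work beside the 9 enzymes were taken as 6 lists. Of 12 tested genes for the activation of propionate and for its cofactors, 7 were higher in liver than in all 3 other tissues and 2 were lower, beside 13.7% and 14.2% of all genes. MMAA, which helps to load vitamin B12 onto the mutase, had 57.9 ± 18.9 CPM in liver and means of 11.2 to 13.8 CPM elsewhere (SD, n = 10). MMACHC, which processes vitamin B12, had 66.8 ± 13.2 CPM in liver and means of 9.09 to 25.5 CPM elsewhere. ACSS3, which activates propionate, had 316 ± 138 CPM in liver and 106 ± 62.8 CPM in fat.

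The subunits of succinyl-CoA synthetase, the next step after the mutase, split by tissue. SUCLG2, the subunit of the GTP-forming enzyme, had 436 ± 116 CPM in liver and 256 ± 72.1 CPM in muscle, while SUCLA2, that of the ATP-forming enzyme, had 31.9 ± 11.0 CPM in liver and 395 ± 91.1 CPM in muscle (both called in all 3 liver contrasts). ACSS1, a mitochondrial acetyl-CoA synthetase, was lowest in liver, at 5.86 ± 3.08 CPM against means of 20.5 to 64.8 CPM. Of 4 genes for glucose release, 1 was higher in liver than in all 3 others and none was lower (13.7% and 14.2% of all genes). The higher gene, SLC2A2, the glucose transporter of the liver cell, had 280 ± 120 CPM in liver and means of 0.0327 to 0.0941 CPM elsewhere. G6PC2 (0 CPM in liver, muscle and pituitary, 0.0129 CPM in fat) was too low to be compared. SLC37A4 was also low, with a mean of at most 1.63 CPM in any tissue.

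Of 12 tested enzymes that glycolysis and gluconeogenesis share, 3 were lower in liver than in all 3 other tissues (5 with library sizes alone), beside 14.2% of all genes. GAPDH, one of the 12, had means of 0 CPM in liver and muscle and at most 0.0194 CPM elsewhere, too low to be compared. The paper used GAPDH as a control gene in its quantitative PCR of these tissues, so these counts are not read as its expression. The reason for the low counts was not tested. ALDOA, the muscle aldolase, had 158 ± 54.6 CPM in liver and 17147 ± 6795 CPM in muscle. PGAM2 and ENO3, the muscle forms of phosphoglycerate mutase and enolase, had 0.695 and 6.58 CPM in liver and 1262 and 4219 CPM in muscle, and the lower level of ENO3 in liver than in pituitary was lost with the animal as a block (adjusted p = 0.0736), without the liver of bull 3 (0.0624) and without cow 3 (0.0538), cow 5 (0.138), bull 1 (0.0524), bull 3 (0.0673), bull 4 (0.151) or bull 5 (0.101). Without the fat of bull 5, PGAM2 was no longer lower in liver than in fat (adjusted p = 0.0558). The level of PGAM2 in liver is near the floor, beside means of 1.37 CPM in fat and 1.34 CPM in pituitary.

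Of 12 tested enzymes that run only towards pyruvate or set their rate, 2 were higher in liver than in all 3 other tissues and 5 were lower, beside 13.7% and 14.2% of all genes. PKLR, the liver pyruvate kinase, had 156 ± 85.1 CPM in liver and means of 0.438 to 1.73 CPM elsewhere, and PKM, the other pyruvate kinase gene, had 47.3 ± 10.3 CPM in liver and 4666 ± 1884 CPM in muscle. PFKFB1, which makes and breaks down the regulator fructose-2,6-bisphosphate, had 198 ± 88.6 CPM in liver and 41.3 ± 16.3 CPM in muscle. PFKFB4, PFKP and HK1, of the same enzyme family, of phosphofructokinase and of hexokinase, had means of 2.56, 11.2 and 22.9 CPM in liver, each below the other 3 tissues.

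Of 13 tested genes for the entry of other carbon sources and for shuttles, 1 was higher in liver than in all 3 other tissues and 1 was lower (3 with library sizes alone), which is a smaller share in either direction than the 13.7% and 14.2% of all genes. GK, glycerol kinase, through which glycerol enters, had 158 ± 101 CPM in liver and means of 6.93 to 8.60 CPM elsewhere. GPT, an alanine aminotransferase, had 1.5 ± 0.938 CPM in liver and 34.9 ± 10.1 CPM in pituitary. Of 12 tested regulators, 4 were higher in liver than in all 3 others and none was lower, beside the same shares of all genes. GCGR, the glucagon receptor, had 191 ± 61.6 CPM in liver and means of 0.252 to 1.75 CPM elsewhere. HNF4A, a transcription factor of the liver, had 950 ± 325 CPM in liver, 27.0 ± 10.8 CPM in fat and means of 0.883 CPM in muscle and 0.131 CPM in pituitary. TRIB3, an inhibitor of insulin signalling, had 29.6 ± 11.2 CPM in liver against means of 0.915 to 3.17 CPM, and KLF15, a transcription factor of fasting metabolism, had 76.0 ± 20.1 CPM against 8.69 to 40.6 CPM, though its excess over fat was lost with library sizes alone (adjusted p = 0.294).

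**Figure D5:**
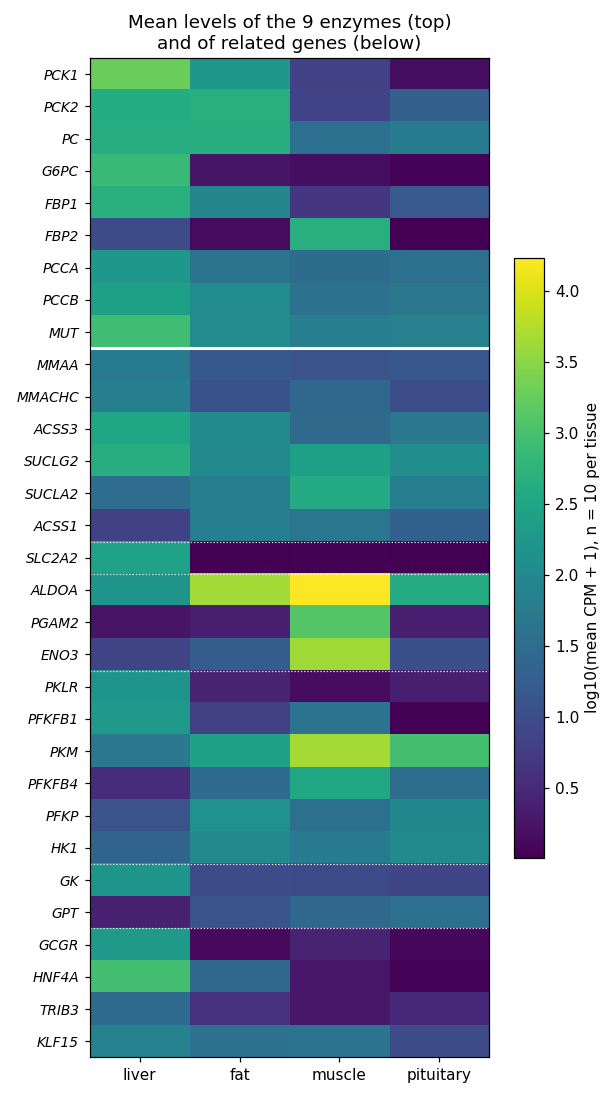
Mean level (log10 of CPM + 1, n = 10 libraries a tissue) of the 9 enzymes, above the white line, and of the related genes named in the text, grouped by list below it; colours compare between tissues within a gene. SLC2A2 and PKLR stood high in liver alone, and ALDOA, PGAM2, ENO3 and PKM stood highest in muscle.

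Between the sexes, 2 of the 65 tested genes of these lists were called, 1 in muscle and 1 in pituitary, where 0.517% and 0.745% of all genes were called, so that a single gene of 65 is close to the background. GCGR in muscle had 4.41, 3.98, 2.41, 0.591 and 4.08 CPM in cows 1 to 5 and 0.695, 0.105, 0.529, 0.166 and 0.553 CPM in bulls 1 to 5, values that rest on 4 to 46 reads in cows and 1 to 4 reads in bulls. Cow 4 lay within the range of the bulls. The summed level of 5 leukocyte markers in muscle was 46.7 to 141 CPM in cows and 19.6 to 67.2 CPM in bulls, and its part in the result was not tested. The log2 difference was -2.94 (SE 0.675, adjusted p = 0.00525; 0.205 with the quasi-likelihood test), and the interaction terms gave an adjusted p of 0.00534 (0.0705 with the quasi-likelihood test, 0.0611 without cow 1 and 0.0945 without bull 2). In liver, where the receptor is abundant, bulls had 176 ± 39.8 CPM and cows 206 ± 79.7 CPM (SD, n = 5 each; adjusted p = 0.994).

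SLC16A1, a monocarboxylate transporter that can carry lactate and short-chain fatty acids, had 34.3, 33.7, 35.7, 28.4 and 24.8 CPM in the pituitaries of cows 1 to 5 and 14.7, 22.3, 16.6, 21.9 and 18.6 CPM in those of bulls 1 to 5. Every cow lay above every bull, as in 0.487% of all genes in pituitary. Summed cell type markers of the pituitary had other medians in cows than in bulls, with overlapping ranges: 7 endocrine markers summed to 82771 to 265777 CPM in cows (median 125368) and 143841 to 286052 CPM in bulls (median 258364). The sum of 5 leukocyte markers was 33.4 to 77.2 CPM in cows (median 42.2) and 20.4 to 66.7 CPM in bulls (median 24.5), and that of 3 posterior pituitary or glial markers was 3.33 to 55.5 CPM (median 6.77) and 10.1 to 49.4 CPM (median 22.8). None of these markers was at 0 in all libraries of a sex, and their part in the result was not tested. The log2 difference was -0.73 (SE 0.197, adjusted p = 0.0352), which was 0.204 with the quasi-likelihood test, 0.0528 with library sizes alone and 0.0545 to 0.171 without cow 1, 2, 3 or 4 or bull 1, 3, 4 or 5, so that the call held only without cow 5 (0.0090) or bull 2 (0.0400). The interaction was not called (adjusted p = 0.430), and it was called without cow 5 (0.0349), as was the difference between bulls and cows in muscle (log2 1.35, adjusted p = 0.0308).

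The genes whose levels followed each member most closely over the 40 libraries were named by Pearson's r of log2(CPM + 1), which here mostly reflects the 4 tissues that the points share. G6PC was followed by CYP2C18, APOC4 and C6 (r 0.996, 0.995 and 0.995), and MUT by genes that include KLKB1 and ACMSD (0.977 and 0.975). FBP2 was followed by LMOD2, P2RY1 and MLIP (0.977, 0.975 and 0.975). QPRT was closest to both PCK2 (0.988) and PC (0.940), and PC and PCK2 were close to each other (0.938). PCCA was nearest to FAM82A1 (0.970) and then to MUT (0.963), PCCB to ACAA1 (0.936), FBP1 to RBP4 (0.965) and PCK1 to IGFBP4 (0.963).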

How the data were processed

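Per the labels and the study's methods, poly-A RNA was sequenced with the Illumina TruSeq kit, and the authors used Trimmomatic for trimming and Bowtie2 and TopHat2 for alignment to bosTau7 (UCSC), and deposited raw HTSeq read counts per gene, 1 table a library. The strand setting of the counting is not given in the sources used here. A row without a gene name (0.114% to 2.69% of the counts) and the HTSeq summary rows were left out, as were 422 genes without a read. Samples were grouped by the sex and tissue of their labels, and animals were matched across tissues by the identifiers in the titles.

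Sex was tested within each tissue (10 libraries), and sex, tissue contrasts and their interaction over all 40, with edgeR 4.0.16 (TMM factors 0.518 to 1.71, prior count 0.125, likelihood ratio test as in the study, Benjamini-Hochberg over 13148 genes, threshold 0.05) in R 4.3.3. Standard errors and 95% intervals come from the same fits. The fits did not return the gene counts that the paper reported for sex. Over tissues they called 222 genes, fewer than the paper did, and the reason was not tested. Ratios in liver, with 0.5 reads added to each count, were compared over all 252 assignments of the sexes. Alternatives were the quasi-likelihood test, DESeq2 1.42.0, RLE factors, library sizes alone, a low-count filter (filterByExpr), the animal as a block (for sex over tissues limma 3.58.1 voom with the animal as a random effect), and leaving out each animal, the liver of bull 3 or the fat of bull 5. Correlations used 1e+05 resamples. The fits were first tested on simulated data.

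The pairing follows the labels, by which each animal gave all 4 tissues: the correlation of an animal's deviations between 2 tissues had a median of 0.03 (liver and fat) to 0.32 (fat and muscle). For the liver labelled bull 3 the pairing is in doubt. It had 1401 CPM of XIST and no USP9Y read. The other tissues of bull 3 had 0.153 to 0.264 CPM of XIST and 34.1 to 56.7 CPM of USP9Y. The fits with the animal as a block rest on these labels. The closest libraries of a tissue, the livers of cow 4 and bull 3, still differed beyond sampling noise and were kept as separate samples. Their ratio of difference to sampling noise was 4.87, against a median of 22.2 over the 45 pairs of livers. A difference beyond sampling noise does not show that they came from separate animals, which was not tested.

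Named genes were every member, every listed gene called for sex, per list up to 4 genes higher and up to 4 lower in liver than in all 3 other tissues with the smallest adjusted p, and for each member up to 3 most alike genes. The members and lists were chosen with earlier results of these data known. HLCS, GCKR, HK2, SLC25A10, MPC1, MPC2, FOXO1, CEBPB, INSR and NR0B2 of the lists were not analysed here. G6PC and MUT were matched to RefSeq by synonym (now G6PC1 and MMUT) and the other 7 members by symbol. Some genes that this rule names are not reported here. Gene coordinates and sequences are not used here. Figures were drawn with matplotlib 3.10.9.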

Additional observations from a re-analysis of the deposited data

Results flagged for a closer look

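In groups of 5 libraries, 63 groups of the 9 enzymes were checked for a single library standing apart (a gap above 0.71 of the range), and 4 were found; chance alone marks about 1 in 20 such groups. FBP1 in the fat of cow 3 was 82.7 CPM, against 50.2 to 57.3 CPM in the other cows. This fat also had the highest summed hepatocyte markers (1881 CPM), a sum that is mostly TF in fat. The part of these markers in the value was not tested. PCCA in the pituitary of bull 2 was 52.9 CPM, against 30.4 to 35.5 CPM in the other bulls. PCCB in the liver of bull 1 was 150 CPM, against 234 to 243 CPM in the other bulls. MUT in the muscle of cow 2 was 93.1 CPM, against 56.5 to 64.9 CPM in the other cows.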

How the results depend on the processing

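The number of the 9 members called stayed within 1.5 times its value under every alternative for sex in fat and pituitary, for sex over tissues and for 5 of the 6 tissue contrasts. Muscle against pituitary called 9 in place of 5 with library sizes alone. The interaction called 1 without the fat of bull 5. Leaving out 1 animal gave 0 to 1 called for sex in liver, 0 to 1 in muscle and 0 to 2 for the interaction. In alternatives chosen after seeing the data, with library sizes alone 5 shared glycolytic enzymes in place of 3 and 3 carbon entry genes in place of 1 were lower in liver than in all 3 other tissues. The animal as a block (replicate block) changed no other call of a member than those given for muscle against pituitary. The cause of these changes was not tested.

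Of the ratios in liver, PCK2 to PCK1 turned from 0.30 to -0.10 with medians and to -0.065 without the liver of bull 3, and was -0.065 to 0.75 when each animal was left out. PCCB to PCCA was -0.33 with medians (exact permutation p = 0.0476), and -0.48 to -0.24 when each animal was left out (p = 0.0476 without cow 4). PC to PCK1 kept its sign.

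The differences that changed sign are given on the log2 scale. With library sizes alone, bulls minus cows turned to -0.073 for PCCA in liver, -0.10 for PCCA in fat, -0.15 for FBP2 and -0.11 for MUT in muscle, -0.11 for PCCB in pituitary, and over tissues to -0.056 for G6PC, -0.0049 for PCCA and -0.15 for MUT. PCCA in fat was -0.017 with DESeq2 and with RLE factors and -0.0067 with the low-count filter, and PCK2 in fat was -0.025 without the fat of bull 5. Over tissues, the block gave 0.034 for PCK1, 0.13 for PCK2, 0.022 for FBP2 and -0.011 for MUT, and MUT was -0.0035 with DESeq2 and with RLE factors, -0.0019 with the filter and -0.0074 without the liver of bull 3. Liver against fat turned to 0.14 for PCK2 without the fat of bull 5, and for PC to -0.66 with library sizes alone and to -0.033 with the block.

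When each animal was left out, bulls minus cows crossed 0 in liver for PCK2 (-0.38 to 0.054). In fat it did so for PCK2 (-0.025 to 0.51), PCCA (-0.23 to 0.20), PCCB (-0.21 to 0.062) and MUT (-0.019 to 0.30). In muscle it did so for G6PC (-0.77 to 0.52), FBP2 (-0.13 to 0.25) and MUT (-0.072 to 0.18). In pituitary it did so for PCK1 (-0.24 to 0.53), G6PC (-0.73 to 0.035), PCCA (-0.17 to 0.055), PCCB (-0.071 to 0.21), MUT (-0.18 to 0.031) and GCGR (-0.40 to 0.026). Over tissues it did so for PCK2 (-0.26 to 0.012), PC (-0.23 to 0.0089), G6PC (-0.12 to 0.33), PCCA (-0.046 to 0.22), PCCB (-0.14 to 0.14) and MUT (-0.11 to 0.050). Of the tissue contrasts, PC between liver and fat ran from -0.24 to 0.21 and MUT between muscle and pituitary from -0.19 to 0.020. Depth limits G6PC outside liver, FBP2 in fat and pituitary and PCK1 in pituitary (2 to 16 reads), which rest on few reads.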
